A study of Mus musculus with 4 samples.

Results

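The cells described here are 822 dendritic cells, chosen by their transcripts from 17864 kept cells of 3 mouse kidney libraries. The libraries came from BAC-CluGFP transgenic mice 2, 7 and 30 days after ischemia of 35 min and reperfusion (IRI), and a library of untreated BAC-CluGFP kidneys was counted by the same rule. In these mice a bacterial artificial chromosome ties green fluorescent protein (GFP) to clusterin (Clu), a secreted chaperone made by injured tubules, and only GFP-positive cells were sorted, so all libraries describe cells that passed that gate rather than all kidney dendritic cells. Kidneys were perfused and digested with collagenase II, dispase II and DNase I, and cells were read by droplet 3′ sequencing. Each group is 1 library; the strain, sex, age and number of mice, and the purity of the gate, are unstated in the labels read here. Without replicates nothing was tested and p-values are absent: the exact 95% intervals hold counting error alone, and differences between libraries may also come from animals, digestion, sorting or capture.

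Dendritic cells take up antigen, carry it to lymph nodes and present it to T cells on class II major histocompatibility (MHC) molecules. Conventional type 1 cells (cDC1) depend on the transcription factor Irf8, carry the chemokine receptor Xcr1 and the dead-cell receptor Clec9a, and are known for presenting taken-up antigen on MHC class I. Conventional type 2 and monocyte-derived cells carry lectins such as Cd209a and Mgl2, and cells of any kind that mature switch on Ccr7, the receptor that guides them along lymphatic vessels. Resident macrophages also have class II molecules but make the complement protein C1q.

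A cell was a member if it had at least 3 raw unique molecular identifiers (UMIs) of Xcr1, Clec9a, Cd209a and Ccr7 together and fewer than 3 of the proliferation genes Top2a and Mki67. Per 10000 UMIs it also had to hold at least 50 of H2-Aa, H2-Ab1 and Cd74, fewer than 100 of the neutrophil genes S100a8 and S100a9, and fewer than 15 of C1qa, C1qb and C1qc. The rule found 111, 13 and 698 cells in the libraries of days 2, 7 and 30. The day 2 members were 1.23% of kept cells (1.02 to 1.49). Those of day 7 were 0.674% (0.359 to 1.15) and those of day 30 were 10.05% (9.35 to 10.8). Among the 629, 228 and 2380 non-cycling cells that met the class II and S100 limits at these times, members made up 17.6%, 5.70% and 29.3%. In the untreated library 11 of 6546 kept cells passed (0.168%; 0.0839 to 0.300). Its kept cells had a median of 5157 UMIs, against 9007.5, 23394 and 9219 at days 2, 7 and 30. The depth settings below leave it out, so its share is not matched in depth to the others.

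The share of dendritic cells was thus highest in the day 30 library. It depended on depth, since the rule counts raw UMIs and the libraries had different lowest totals of 3881, 18362 and 5976 UMIs per cell at days 2, 7 and 30. With every cell thinned to 3500 UMIs the shares were 0.957%, 0.155% and 6.69% at days 2, 7 and 30. The limit on Top2a and Mki67 was also applied to the thinned counts, so it removed fewer cells. The non-cycling cells that met the class II and S100 limits numbered 838, 279 and 2460 after thinning, against 629, 228 and 2380 before. This setting therefore changed more than the detection of the 4 marker genes. Among cells with at least 18362 UMIs the shares were 0.504%, 0.674% and 4.58%. The day 30 share was the highest of the 3 in each of these settings, while days 2 and 7 changed order.

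**Figure D1:**
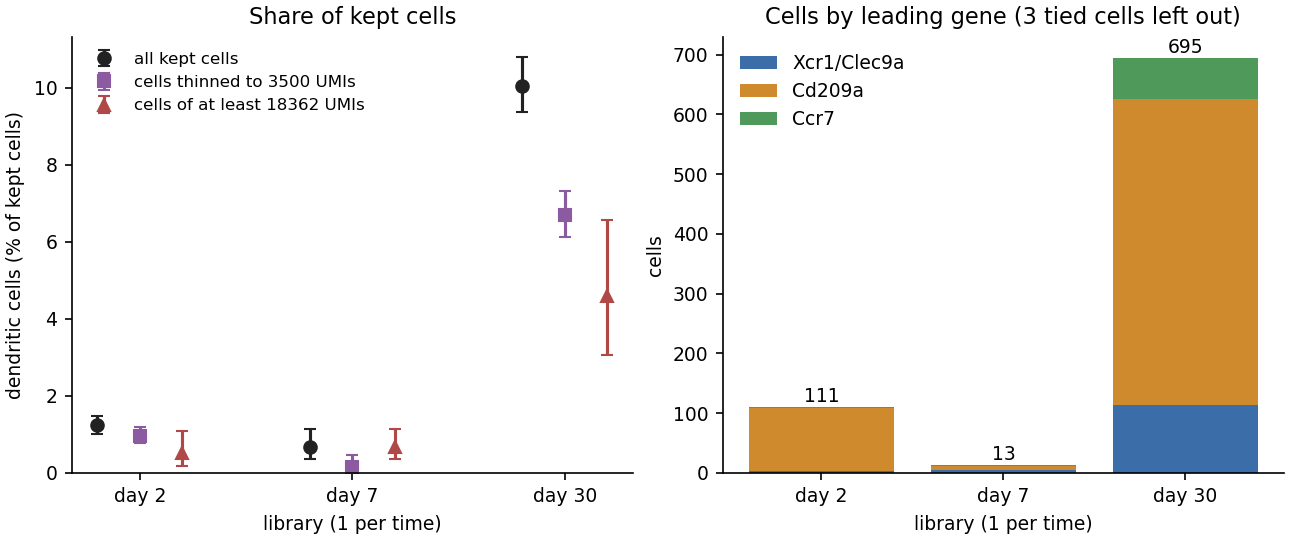
Left, dendritic cells as a percentage of kept cells in the libraries of days 2, 7 and 30 with exact 95% intervals of counting error, for all kept cells, for cells thinned to 3500 UMIs and for cells of at least 18362 UMIs. Right, number of cells by leading gene: 111 cells at day 2 and 13 at day 7, against 695 at day 30, where 3 tied cells are left out.

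Cells near the limits were counted without a test. The median sum of the 4 marker genes was 9, 12 and 9 UMIs at days 2, 7 and 30. Just inside the limit, 14, 1 and 57 cells had a sum of 3, and just outside it 23, 2 and 92 otherwise passing cells had a sum of 2. The C1q limit alone removed 1, 2 and 54 cells, and the class II limit alone 10, 1 and 24. The limit on neutrophil genes alone removed 18, 0 and 1 cells, so it acted mostly at day 2.

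The limit on proliferation genes removed more cells than it left at day 2. Without it 262, 23 and 802 cells would have passed at days 2, 7 and 30, and it took out 151 (57.6%; 51.4 to 63.7), 10 (43.5%; 23.2 to 65.5) and 104 (12.97%; 10.7 to 15.5) of them. Of the removed day 2 cells 143 of 151 were led by Cd209a, as were 249 of the 262 cells before the limit. At day 2 it removed 57.4% (51.03 to 63.7) of Cd209a cells and 8 of 11 Xcr1/Clec9a cells (72.7%; 39.03 to 93.98). After thinning of each cell to 2000 UMIs, 52.7% (46.4 to 58.8), 39.1% (19.7 to 61.5) and 15.5% (13.03 to 18.2) of these cells had a Top2a or Mki67 UMI. These cells were chosen on unthinned counts and no share was computed for a cell type that lacks the 2 genes, so the part of free RNA in these shares was not tested. At day 30 the limit removed 20.3% (14.02 to 27.8) of Xcr1/Clec9a cells, 12.6% (10.1 to 15.6) of Cd209a cells and 1.41% (0.0357 to 7.60) of Ccr7 cells, that is 29 of 143, 74 of 585 and 1 of 71.

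Members were then split by the gene with the most UMIs. At day 2, 106 of 111 were Cd209a cells (95.5%), 3 were Xcr1/Clec9a cells and 2 were Ccr7 cells. At day 7 there were 5 Xcr1/Clec9a, 6 Cd209a and 2 Ccr7 cells. At day 30 there were 114 Xcr1/Clec9a cells (16.3%; 13.7 to 19.3), 511 Cd209a cells (73.2%; 69.8 to 76.5), 70 Ccr7 cells (10.03%; 7.90 to 12.5) and 3 ties. In most cells the leading genes did not mix: 102 of the 114 day 30 Xcr1/Clec9a cells had UMIs of both Xcr1 and Clec9a, 11 of them also had Cd209a and 5 had Ccr7. Of the 511 Cd209a cells, 69 had a UMI of Xcr1 or Clec9a, 59 of these Clec9a alone, and 19 had Ccr7. The Ccr7 cells mixed more, with a UMI of Xcr1 or Clec9a in 18 of 70 and of Cd209a in 8. The genes lie, in the GENCODE annotation of mm10, at chr9:123852315-123862029 (Xcr1, minus strand), chr6:129408862-129424763 (Clec9a, plus strand), chr8:3743397-3748984 (Cd209a, minus strand) and chr11:99144196-99155077 (Ccr7, minus strand).

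The median member had 9262 UMIs, 2741 genes and 2.59% mitochondrial UMIs at day 2. The medians were 19336 UMIs, 4456 genes and 2.77% in the 13 day 7 cells, and 7891.5 UMIs, 2553.5 genes and 2.91% at day 30. Days 2 and 30 shared 20 barcodes among kept cells and 1 among members, and no other pair shared more than 13 kept barcodes. The doublet caller Scrublet marked 4 of 111 members at day 2, 0 of 13 at day 7 and 90 of 698 at day 30 (12.9%), where it marked 8.005% of all kept cells. Without these cells the member shares were 1.29%, 0.677% and 9.51%.

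The levels below are counts per 1000000 UMIs (CPM), taken over the summed cells of a set. They are not corrected for free RNA, which in droplet data puts transcripts of lysed cells into every cell. Markers of other cell types were taken as a guide to it. The summed CPM of 20 nephron markers in Cd209a cells was 32.1% of that in all kept cells at day 30, against 16.3% at day 2. For 10 fibroblast markers the figures were 51.0% at day 30 and 16.8% at day 2, and for 10 endothelial markers 95.1% at day 30 and 23.9% at day 2. At day 30 Xcr1/Clec9a cells stood at 34.6%, 47.8% and 35.7% for nephron, fibroblast and endothelial markers, and Ccr7 cells at 24.2%, 34.8% and 27.2%. The endothelial figure thus differed between subgroups of the same library, and what raised it in Cd209a cells was not tested. The part of free RNA in each result was not tested, and values after its subtraction stand beside the results it touches.

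**Figure D2:**
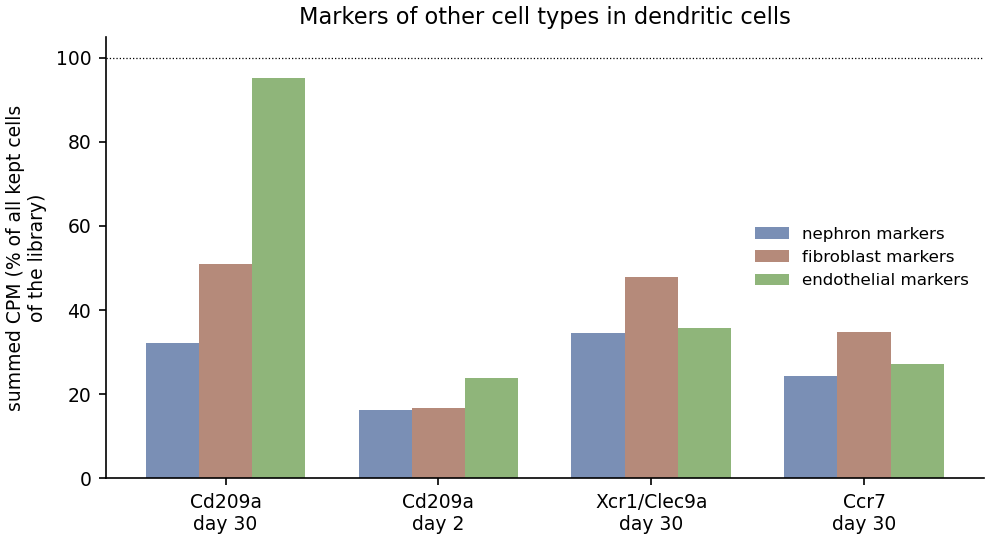
Summed CPM of 20 nephron, 10 fibroblast and 10 endothelial markers in Cd209a cells at day 30 and day 2 and in Xcr1/Clec9a and Ccr7 cells at day 30, as a percentage of the same sum in all kept cells of the library (dotted line, 100%). Each is lower at day 2 than at day 30 in Cd209a cells, where endothelial markers reached 95.1% at day 30.

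The label was checked against markers the rule did not use, in comparison with class II-high cells that had none of the 4 marker genes. These were split at the same C1q limit into C1q-high cells (817 at day 30 and 212 at day 2) and C1q-low cells with Ptprc and Tyrobp but no T or B cell receptor genes (323 at day 30 and 206 at day 2). Flt3, the growth factor receptor of dendritic cells, stood at 129.6 CPM in Xcr1/Clec9a, 33.7 in Cd209a and 68.1 in Ccr7 cells at day 30, against 6.22 CPM in C1q-low and 1.91 CPM in C1q-high cells. Zbtb46, a transcription factor of conventional dendritic cells, stood at 78.5, 28.7 and 27.2 CPM in the same subgroups, against 12.1 and 4.898 CPM. Lyz2, the lysozyme gene of macrophages and monocytes, was lower in all 3 subgroups, with 1192, 2957 and 1072 CPM against 10762 CPM in C1q-low and 17374 CPM in C1q-high cells. Both Flt3 and Zbtb46 thus lay above the C1q sets in every subgroup, and Lyz2 below them. Flt3 and Zbtb46 are from a list of 12 shared dendritic genes, and Lyz2 is on the cDC2 and monocyte-derived list used below. The macrophage list, which holds the C1q genes of the rule, summed to 1500, 2342 and 1551 CPM in the subgroups. Its sum was 3347 CPM in C1q-low and 32179 CPM in C1q-high cells. Single macrophage markers in Cd209a and C1q-low cells, few of which differed at day 30, are given at the end. These are sums over cells and do not settle the label of each cell. Of the 511 Cd209a cells, 89 had UMIs of both Flt3 and the ribonuclease gene Ear2. Flt3 alone was seen in 22, Ear2 alone in 329 and neither in 71, so most Cd209a cells had no Flt3 UMI.

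Markers of other lineages were detected in all 3 subgroups at day 30. T and NK markers summed to 22.7 CPM in Xcr1/Clec9a, 86.8 CPM in Cd209a and 168.0 CPM in Ccr7 cells, against 91.9 CPM in all other kept cells, and 5, 2 and 5 of the 12 were at 0 in the subgroups. B and plasma markers summed to 25.5, 57.2 and 18.2 CPM in the same order, against 61.5 CPM, with 3, 1 and 3 of 7 at 0. Neutrophil markers summed to 26.5, 61.5 and 34.8 CPM, against 63.4 CPM, with 6, 1 and 3 of 10 at 0. The sum of T and NK markers was thus higher in Ccr7 cells than in all other kept cells. The other T and NK sums, and all B and plasma and neutrophil sums, were below those of these kept cells. In Ccr7 cells Cd4, Nkg7, Gzma, Klrb1c and Ncr1 were at 0. Il7r was the only gene of that list that differed between Ccr7 cells and other members by the size rule given below. At day 2 the neutrophil markers summed to 1628 CPM in Cd209a cells, with none at 0, against 20615 CPM in all other kept cells. Plasmacytoid dendritic markers summed to 194 CPM in Xcr1/Clec9a, 361 CPM in Cd209a and 247 CPM in Ccr7 cells, against 418 CPM in all other kept cells, and Cox6a2 was at 0 in all 3 subgroups. Mast and basophil markers summed to 91.7 CPM in Xcr1/Clec9a, 21.6 CPM in Cd209a and 10.6 CPM in Ccr7 cells, against 43.8 CPM in all other kept cells. The sum in Xcr1/Clec9a cells was thus above that of these kept cells. In Xcr1/Clec9a cells Kit alone stood at 87.9 CPM, while Cpa3, Mcpt8, Mcpt4 and Tpsb2 were at 0.

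The following contrasts of 1 day 30 subgroup with all other members describe cells that the rule itself separated, so their counts are descriptions. Genes count as measured from 20 CPM in 1 of the sets and 20 UMIs over both, and as higher or lower where the CPM ratio reached 2-fold with an interval that left out 1. Between Xcr1/Clec9a cells and other members, 253 of 6291 measured genes were higher (4.02%) and 550 lower (8.74%). For Cd209a cells 415 of 6288 were higher (6.6%) and 304 lower (4.83%). For Ccr7 cells 443 of 6309 were higher (7.02%) and 840 lower (13.3%). By the same size rule and against C1q-low cells, 366 of 6398 genes were higher (5.72%) and 753 lower (11.8%) in Xcr1/Clec9a cells, and 482 of 6372 were higher (7.56%) and 1013 lower (15.9%) in Ccr7 cells. Against C1q-high cells, 229 of 6391 were higher (3.58%) and 318 lower (4.98%) in Cd209a cells.

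Xcr1/Clec9a cells carried the cDC1 programme. Of its 20 measured genes outside the rule, 19 were higher than in other members and none lower, with a median log2 ratio of 3.18, against -0.14 over all measured genes. Irf8 stood at 1508 CPM (1435 to 1584) in Xcr1/Clec9a cells, 61.96 in Cd209a and 383 in Ccr7 cells. Per 10000 UMIs of a cell its median was 15.7 in Xcr1/Clec9a cells and the highest cell had 32.7, while the median Cd209a cell had 0. Itgae, the integrin chain CD103 of tissue cDC1, stood at 189 CPM in Xcr1/Clec9a cells, 4.102 in Cd209a cells and 9.08 in Ccr7 cells. Of the 114 Xcr1/Clec9a cells, 113 had an Irf8 UMI and 89 an Itgae UMI. Batf3, a partner of Irf8 in cDC1 development, was the exception, with 147 CPM in Xcr1/Clec9a, 123 in Cd209a and 109 in Ccr7 cells.

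Further cDC1 genes covered sensing and antigen handling. Tlr3, the endosomal sensor of double-stranded RNA, stood at 206 against 9.198 CPM in other members (22.4-fold; 16.4 to 31.2). Wdfy4, needed for cross-presentation, had 423 against 66.6 CPM and the adhesion molecule Cadm1 211 against 36.4 CPM. The lysosomal enzyme Ppt1 had 1081 against 79.8 CPM. Btla, a checkpoint receptor, had 201 against 15.6 CPM and Cxcr3, a receptor for interferon-induced chemokines, 62.4 against 0.939 CPM. The gene with the highest ratio among those of at least 100 CPM was Gcsam, with 128 against 1.502 CPM (85.01-fold; 41.9 to 201). Ifi205 had 306 against 10.1 CPM, but it belongs to a family of near-identical genes between which reads can be split, so its value is uncertain. The same holds for Apol7c, Ear2, Lyz1, H2-Q6 and H2-Q7 below.

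In Xcr1/Clec9a cells the class I pathway stood out by few genes: 3 of 17 were higher, the peptide transporter Tap1 with 181 against 78.3 CPM, its partner Tap2 with 125 against 60.6 CPM and the immunoproteasome subunit Psmb9 with 392 against 114 CPM. Tap2 fell below 2-fold in 2 alternatives. Of 14 interferon-response genes 6 were higher, among them Irf7 with 58.6 against 8.26 CPM, and 2 were lower, the guanylate-binding proteins Gbp2 and Gbp7 (60.5 against 138 and 28.4 against 73.02 CPM). Cxcl9, a ligand of Cxcr3, was the only 1 of 15 measured chemokine ligands that was higher, with 141 against 58.003 CPM. Of the 13 measured co-stimulatory and checkpoint genes 2 were higher, Cd86 (127 against 47.3 CPM) and Havcr2 (103 against 21.4 CPM), and 4 were lower, Cd40, Cd274, Icosl and Tnfsf9. The few earlier Xcr1/Clec9a cells held Irf8 and Itgae too: the 3 cells of day 2 had 1670.2 CPM of Irf8 (1244 to 2196) and 327 CPM of Itgae (157 to 602), and the 5 cells of day 7 had 1952 CPM (1682 to 2252) and 511.4 CPM (378 to 676). The day 7 cells differed among themselves: Irf8 ranged over 2.16 to 30.5 per 10000 UMIs, and 1 cell held 98 of the 100 Ccl17 UMIs, 80 of the 86 Ccl22 UMIs and all 24 of Il12b.

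The promoters of the named genes were read from RefSeq (GRCm38.p6), which held 250 bases before to 50 after the start for 7 of the 10 named Xcr1/Clec9a genes, 6 of the 10 Cd209a genes and 9 of the 10 Ccr7 genes. An NF-kappaB-type motif (GGGANTTTC), an interferon-regulatory-factor motif (GAAANNGAA) and a composite ETS and IRF motif (GGAANNGAA) were searched on both strands, each allowed to overlap the others. They occur in 1.11%, 8.56% and 8.24% of all 32851 promoter windows. Among the named genes with a window the first was found in Tlr3 alone. The second was found in Ifi205, Ppt1 and Btla of the Xcr1/Clec9a genes (3 of 7), in Clec4b1 of the Cd209a genes (1 of 6) and in Apol7c, Tnfrsf4 and Cacnb3 of the Ccr7 genes (3 of 9), and the third in none of them. Of the genes of the rule, Clec9a holds the second motif once and Cd209a the third at 2 places. Forms of the motifs that were 1 base longer had been searched before these, and matched in Tlr3, Ifi205, Clec4b1, Apol7c and Cd209a only, so the matches in Ppt1, Btla, Tnfrsf4, Cacnb3 and Clec9a rest on the shorter form. The windows of Clec9a, Tlr3, Cd209a and Apol7c are shown because each holds a match in a gene that marks 1 of the subgroups; capitals mark the matched bases, and all are printed 5′ to 3′ on the gene's strand.
Clec9a, chr6:129408612-129408911, plus strand: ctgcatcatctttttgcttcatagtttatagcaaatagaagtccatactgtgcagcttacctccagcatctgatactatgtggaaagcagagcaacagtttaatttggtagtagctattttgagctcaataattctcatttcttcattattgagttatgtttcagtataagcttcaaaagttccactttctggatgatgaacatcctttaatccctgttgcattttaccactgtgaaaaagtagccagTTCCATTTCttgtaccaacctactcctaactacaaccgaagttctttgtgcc
Tlr3, chr8:45410331-45410630, minus strand: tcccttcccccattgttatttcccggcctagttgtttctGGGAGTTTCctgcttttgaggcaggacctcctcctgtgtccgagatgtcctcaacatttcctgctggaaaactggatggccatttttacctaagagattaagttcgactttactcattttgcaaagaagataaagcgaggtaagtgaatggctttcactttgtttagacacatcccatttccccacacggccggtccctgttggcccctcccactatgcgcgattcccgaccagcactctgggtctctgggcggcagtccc
Cd209a, chr8:3748935-3749234, minus strand: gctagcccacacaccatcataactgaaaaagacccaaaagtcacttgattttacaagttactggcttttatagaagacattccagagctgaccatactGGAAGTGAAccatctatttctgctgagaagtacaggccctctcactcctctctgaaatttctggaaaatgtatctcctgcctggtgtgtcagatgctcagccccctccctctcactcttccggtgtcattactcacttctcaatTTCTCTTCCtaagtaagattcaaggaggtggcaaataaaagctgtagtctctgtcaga
Apol7c, chr15:77533266-77533565, minus strand: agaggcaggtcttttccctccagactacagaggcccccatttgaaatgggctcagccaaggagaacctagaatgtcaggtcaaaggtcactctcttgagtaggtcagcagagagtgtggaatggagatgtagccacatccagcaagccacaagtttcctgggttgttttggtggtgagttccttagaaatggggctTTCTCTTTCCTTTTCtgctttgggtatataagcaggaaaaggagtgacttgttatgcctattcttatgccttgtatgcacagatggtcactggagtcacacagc
The first match begins 2 bases before the start in Clec9a, 211 in Tlr3, 152 in Cd209a and 54 in Apol7c, whose matches overlap. A match is a description of these letters and not a binding site.

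Cd209a cells carried lectins and myeloid genes. Of 17 measured cDC2 and monocyte-derived genes, 15 were higher than in other members and none lower (median log2 ratio 2.24, against 0.15 over all measured genes). They do not set Cd209a cells apart from the C1q sets as a list. All 20 genes of the list, Lyz2 among them, summed to 10593 CPM in Cd209a cells at day 30. The sum was 15495 CPM in C1q-low and 23306 CPM in C1q-high cells. Mgl2, a galactose-type lectin, stood at 1759 against 110.1 CPM and the related Clec10a at 183 against 3.99 CPM. Per 10000 UMIs the median Cd209a cell had 17.1 Mgl2 UMIs and the highest 84.0. Of the 511 cells, 255 had UMIs of both lectins, 224 of Mgl2 alone, 26 of Clec10a alone and 6 of neither. Itgam, the integrin chain CD11b, had 226 against 15.4 CPM, the inhibitory receptor Sirpa 198 against 55.9 CPM and Irf4, the transcription factor of cDC2, 59.4 against 15.97 CPM.

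Uptake receptors were the second group that stood higher in Cd209a cells than in other members, with 8 of 11 measured genes higher and none lower. This contrast is with the other subgroups only. Fcgr2b stood at a level not far below in C1q-low cells of day 30, given below. The mannose receptor Mrc1 had 523 against 41.6 CPM, the inhibitory Fc receptor Fcgr2b 401 against 66.7 CPM and the activating Fcgr3 161 against 20.5 CPM. Of 7 chemokine receptors outside the rule 4 were higher, among them Ccr1 (119 against 5.13 CPM), Ccr2 (1032 against 487 CPM) and Cx3cr1 (61.7 against 11.4 CPM). The ribonuclease gene Ear2 had 599 CPM in Cd209a, 67.1 in Xcr1/Clec9a and 107 in Ccr7 cells. Of macrophage markers 5 of 10 were higher and none lower, led by Mrc1 and Csf1r (163 against 39.4 CPM), and 5 of 8 monocyte markers were higher and 1 lower. All 3 measured endothelial markers were higher. Pecam1 had 21.2 against 3.99 CPM, Emcn 22.02 against 7.99 CPM and Flt1 33.2 against 8.56 CPM. These genes are part of the sum behind the 95.1% above, and the part of free RNA in the other values was not tested.

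Ccr7 cells carried the mature migratory programme almost whole. Of its 33 measured genes outside the rule, 32 were higher than in other members and none lower, and the median log2 ratio was 3.18, against -0.21 over all measured genes. Fscn1, which bundles actin in the dendrites, stood at 855 CPM (786 to 929) in Ccr7 cells, 7.77 in Cd209a and 13.2 in Xcr1/Clec9a cells. Samsn1, a signalling adaptor, had 1223 against 67.1 CPM, Il4i1, an amino acid oxidase that restrains T cells, 667 against 27.1 CPM, and Relb, an NF-kappaB subunit needed for maturation, 475 against 52.4 CPM. The highest ratio was that of Apol7c, an apolipoprotein L gene, with 156 CPM in Ccr7 cells and 2 UMIs in all other members.

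**Figure D3:**
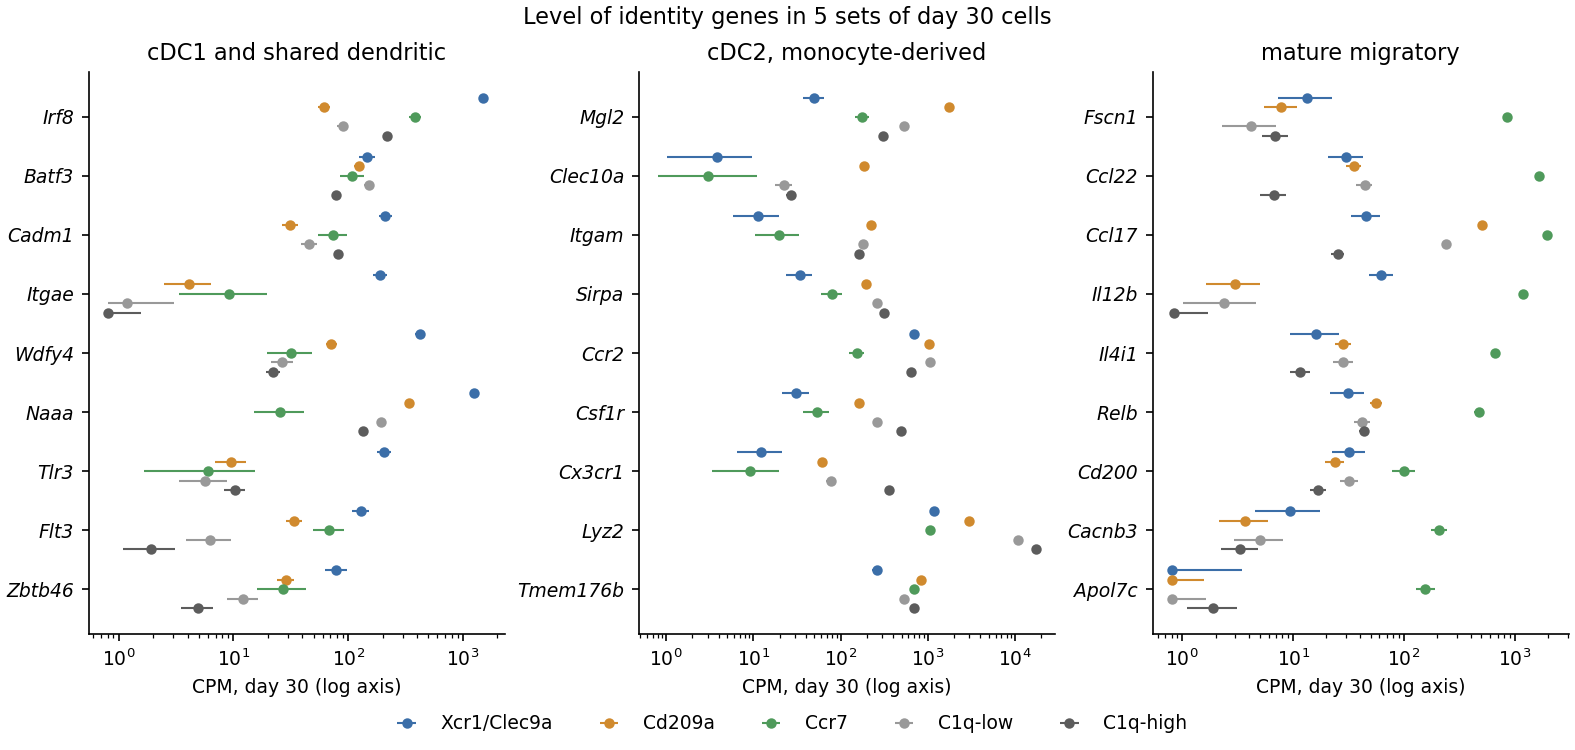
CPM (log axis) of 27 identity genes in Xcr1/Clec9a, Cd209a and Ccr7 cells and in C1q-low and C1q-high cells of the day 30 library; bars are exact 95% intervals of counting error and values under 0.8 CPM are drawn at 0.8. Irf8, Itgae and Tlr3 lie far to the right in Xcr1/Clec9a cells, Mgl2 and Clec10a in Cd209a cells and Fscn1, Ccl22 and Il12b in Ccr7 cells, while Lyz2 is highest in the 2 C1q sets.

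The secreted factors of Ccr7 cells were few and at high levels. Ccl5, an attractant of T cells, stood at 2123 CPM (2014 to 2238) in Ccr7 cells, 50.1 in Xcr1/Clec9a and 83.8 in Cd209a cells. Ccl22 and Ccl17 bind the same receptor, Ccr4, on T cells. Ccl22 stood at 1653 CPM in Ccr7, 30.3 in Xcr1/Clec9a and 35.2 in Cd209a cells. Ccl17 stood at 1960.0 CPM in Ccr7, 45.4 in Xcr1/Clec9a and 503 in Cd209a cells, so that it was the only one of the 3 also plentiful in Cd209a cells. Il12b, the p40 chain of interleukins 12 and 23, stood at 1197 CPM (1115 to 1284) in Ccr7, 62.4 in Xcr1/Clec9a and 3.02 in Cd209a cells. After thinning to 2000 UMIs, 45.7% (33.7 to 58.1) of Ccr7 cells had an Il12b UMI, against 0.292% (0.134 to 0.554) of nephron cells of the same library, which should lack it; the median depths were 8677.5 and 10293.5 UMIs. For Ccl22 the shares were 62.9% and 0.617%. Without thinning, 57.1% of Ccr7 cells and 0.942% of nephron cells had an Il12b UMI.

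These factors were spread unevenly over the 70 cells. Per 10000 UMIs the median Ccr7 cell had 7.70 UMIs of Ccl5 and the highest 275, 5.29 of Ccl22 with a highest of 127, 4.17 of Ccl17 with a highest of 144, and 1.39 of Il12b with a highest of 96.7. Il12b and Ccl17 occurred together in 28 cells, Il12b alone in 12, Ccl17 alone in 23 and neither in 7. Fscn1 and Ccl22 occurred together in 37 cells, and every one of the 70 cells had a UMI of at least 1 of these 2 genes. Ccl6 and Ccl9, chemokines of myeloid cells, and Il1b showed the other pattern, with 174 against 613, 139 against 346 and 95.3 against 298 CPM in Ccr7 cells and in the other members.

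**Figure D4:**
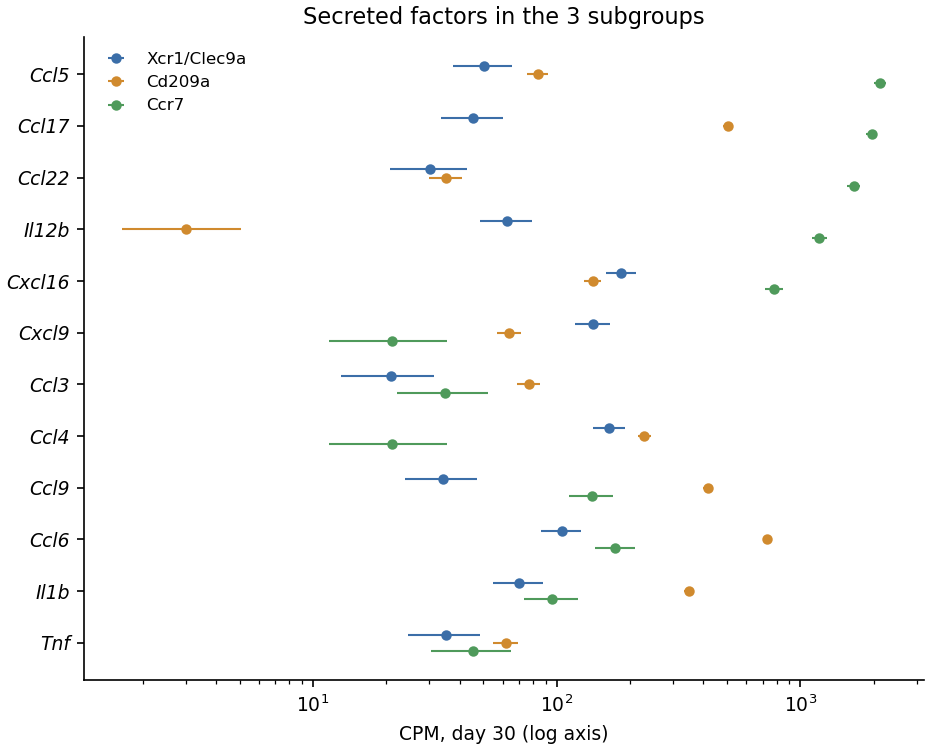
CPM (log axis) of 12 chemokine and cytokine genes in Xcr1/Clec9a, Cd209a and Ccr7 cells of the day 30 library with exact 95% intervals of counting error. Ccl5, Ccl22, Ccl17 and Il12b lie furthest to the right in Ccr7 cells; Ccl6, Ccl9 and Il1b are highest in Cd209a cells.

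Surface and presentation genes of Ccr7 cells went both ways. Of 16 measured co-stimulatory and checkpoint genes 10 were higher and 2 lower (median log2 ratio 1.86). Cd83 had 471 against 109 CPM, Cd40, the receptor of T cell help, 90.8 against 12.9 CPM, and Cd274, the inhibitory ligand PD-L1, 121 against 13.1 CPM. Tnfrsf4 (OX40) had 112 against 1.22 CPM, while Vsir and Lgals9 were lower. Of 10 class II presentation genes outside the rule 6 were lower and 1 higher (median log2 ratio -1.20). The peptide exchange subunits H2-DMa and H2-DMb1 had 169.5 against 607 and 93.8 against 441 CPM, the class II transactivator Ciita 54.5 against 139 CPM and the ubiquitin ligase March1 12.1 against 124 CPM, while Ifi30, a lysosomal thiol reductase, was higher with 1786 against 849.6 CPM. Of 17 NF-kappaB genes 7 were higher and none lower, among them Rel (637 against 184 CPM) and Traf1 (654 against 120.2 CPM). Of 13 uptake receptors 8 were lower, for instance Mrc1 (65.1 against 429 CPM), and 2 higher, Timd4 and Havcr1. Ccr2, which draws monocytes into tissue, had 154 against 966 CPM. The fatty acid-binding protein Fabp5 had 834 against 114 CPM.

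Cxcr4 and Gpr183 were the 2 of 6 measured chemokine receptors outside the rule that were higher in Ccr7 cells, with 49.9 against 9.61 and 153 against 33.5 CPM. The sparse Ccr7 cells of the earlier days gave a few values. The pair of day 2 had 12 Fscn1 UMIs, or 695 CPM (359 to 1214), and no UMI of Il12b, Ccl22 or Ccl17. The pair of day 7 had 454 CPM of Fscn1 (294 to 671), 1309 CPM of Ccl22 (1024 to 1648), 2490.1 CPM of Ccl17 (2091 to 2944) and 291 CPM of Il12b (166 to 472). With 2 cells each, no comparison was made.

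The question of change after injury could be asked only for Cd209a cells, which numbered 511 at day 30 and 106 at day 2; the other subgroups had fewer than 20 cells at days 2 and 7. Of 17 cDC2 and monocyte-derived genes 12 were not called and 5 were higher at day 30 (Lyz2, Klf4, Ifitm6, Tmem176a and Tmem176b). Mgl2 stood at 1759 CPM at day 30 and 1790.4 CPM at day 2 (0.982-fold; 0.935 to 1.03), Ccr2 at 1032 and 850.1 CPM, Itgam at 226 and 273 CPM, and Irf4 at 59.4 and 46.9 CPM. None of the 10 class II genes outside the rule and none of the 14 measured glycolysis and hypoxia genes was called. Over all genes 844 of 6393 were higher at day 30 (13.2%) and 388 lower (6.07%), with a median log2 ratio of 0.05. In C1q-low cells of the same 2 libraries 910 of 6374 were higher (14.3%) and 388 lower (6.09%), and in all other kept cells 816 of 7288 were higher (11.2%) and 572 lower (7.85%). These sets share libraries with the Cd209a cells.

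Since the marker sums above differed between the libraries, each call was repeated after subtracting the library's mean profile, scaled once by the nephron markers and once by the fibroblast and endothelial markers. Of the 844 higher genes 343 were still called after both (40.6%), and of the 388 lower genes 303 (78.1%). All 6 measured fibroblast markers and 9 of 16 nephron markers were higher at day 30, and Kap, a proximal tubule transcript, had 396 CPM at day 30 against 9.02 CPM at day 2. Col3a1, a fibroblast collagen, kept its call after both subtractions with 113 against 18.05 CPM. The genes given with their levels below kept their calls after both subtractions, and also when the 1 cell with most of the gene's UMIs was left out of each library, unless stated; they were chosen after their values were seen where the naming rule did not name them. With the scale from nephron markers 1 of the 10 class II genes was higher and 1 of 13 glycolysis and hypoxia genes lower. With the scale from fibroblast and endothelial markers 5 of 10 class II genes were higher (median log2 ratio 0.78) and 5 of 13 glycolysis and hypoxia genes lower (median -0.74).

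At day 30 Cd209a cells had more transcripts of several secreted and surface proteins. Fn1, fibronectin, stood at 369 CPM at day 30 and 28.9 CPM at day 2 (12.8-fold; 9.01 to 18.7). Fcrls, an Fc receptor-like protein of myeloid cells, stood at 157 CPM at day 30 and 7.22 CPM at day 2. Trf, transferrin, stood at 347 and 46.02 CPM, and Ear2 at 599 and 88.4 CPM, while the mean of all kept cells was 152 CPM of Ear2 at day 30 and 14.6 CPM at day 2. For Fn1 the means of all kept cells were 428 and 154 CPM, for Fcrls 83.9 and 32.4 CPM and for Trf 136 and 51.6 CPM. Each was thus higher at day 30 in all kept cells too. Fn1 was also higher at day 30 in C1q-low cells, as given below. The inhibitory receptor Fcgr2b had 401 CPM at day 30 against 94.8 CPM at day 2 (4.23-fold; 3.47 to 5.201), whereas in C1q-low cells it had 341 against 277 CPM, a ratio that was not called. Retnla, a resistin-like protein of alternatively activated macrophages, had 1260 UMIs (272 CPM) at day 30 and no UMI at day 2, which makes it at least 100.5-fold higher against a floor of 3 UMIs per library. That bound holds for the uncorrected counts only. Retnla was not among the genes that kept their calls after both subtractions and without the highest cell. The C1q-low cells had 2314 CPM of Retnla at day 30 and none at day 2.

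Some lipid and lysosome genes were higher at day 30 in the counts as deposited, 7 of 21 with none lower (median log2 ratio 0.84). That direction did not last through the subtraction of free RNA: 6 of 17 were higher and 5 lower with the nephron scale (median 0.39), and 3 of 14 higher and 7 lower with the fibroblast and endothelial scale (median 0.02). Lpl, lipoprotein lipase, had 421 against 89.3 CPM at day 2 (4.71-fold; 3.85 to 5.83), and the lysosomal saposin precursor Psap 2237 against 743 CPM. Apoe (817 against 121 CPM) and Gpnmb (77.3 against 2.71 CPM) were higher as well, but did not keep their calls after both subtractions, and 1 cell held 45.3% of the day 30 Gpnmb UMIs. Lyz2, with 2957 against 529 CPM, lost its call too. Of 10 interferon-response genes 1 was higher, a share below the 13.2% of all genes: Gbp2 (137 against 23.5 CPM), as was Gbp3 (111 against 12.6 CPM), a guanylate-binding protein outside the list. Of 12 cDC1 genes outside the rule 7 were higher and 1 lower. Irf8 was higher, with 61.96 against 22.6 CPM, a level far below that of Xcr1/Clec9a cells. Flt3 (33.7 against 12.6 CPM), Dpp4, the surface peptidase CD26 (152 against 55.05 CPM), and Adam23 were the 3 higher genes among 12 shared dendritic genes.

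Genes of the mature programme also stood higher at day 30 in Cd209a cells, 11 of 21 and none lower (median log2 ratio 1.10), at levels far below those of Ccr7 cells. After subtraction 7 of 17 were higher and none lower with the nephron scale, and 6 of 17 higher and 3 lower with the fibroblast and endothelial scale. Birc3, an inhibitor of apoptosis, had 105 against 19.9 CPM and Il4i1 28.3 against 3.61 CPM. Ccl5 had 83.8 against 1.805 CPM, with 29.1% of the day 30 UMIs in 1 cell. Ccl17 and Ccl22 were not called, with 503 against 631 and 35.2 against 18.95 CPM, and Fscn1 was below the measuring limit at both times. Of 17 NF-kappaB genes 4 were higher, among them Tnfaip3 (65.2 against 18.95 CPM). Of 16 immediate-early genes, which digestion is known to induce, only Egr1 (735 against 186 CPM) and Fosb (488 against 139 CPM) were higher. That share of the immediate-early genes was near the 13.2% of all measured genes. All kept cells averaged 794 CPM of Egr1 at day 30 against 513 CPM at day 2, and 472 against 161 CPM of Fosb.

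Cell-cycle genes were lower at day 30. All 11 measured cell-cycle genes outside the rule were lower (median log2 ratio -2.01), although the rule had removed cells with 3 or more Top2a and Mki67 UMIs at both times. All 10 and all 9 that could still be measured after the 2 subtractions were lower too. The replication helicase subunit Mcm6 had 20.3 against 110.1 CPM at day 2 (0.184-fold; 0.139 to 0.243), and Pcna 18.999 against 76.7 CPM. Stmn1, a microtubule regulator high in cycling cells, had 39.3 against 141 CPM.

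Macrophage markers and receptors of uptake moved in both directions. Of 10 macrophage markers 5 were higher at day 30 (Apoe, Cd163, Ms4a7, Cd81 and Hpgd) and 1 was lower (median log2 ratio 1.12), and of 13 uptake and danger receptors 4 were higher (Cd36, Axl, Fcgr2b and Lrp1) and 3 lower. After subtraction 4 of 7 macrophage markers with the nephron scale, and 3 of 6 with the fibroblast and endothelial scale, were higher and 1 was lower. The marker lower in each case, Fcgr1, the high-affinity Fc receptor of monocytes and macrophages, had 26.1 CPM at day 30 and 172 CPM at day 2 (0.152-fold; 0.1197 to 0.191). The lectin Clec4n had 49.9 against 250.0 CPM, the oxysterol receptor Gpr183 30.2 against 161 CPM, and Cd69, which holds cells in tissue, 17.1 against 144 CPM. Of 9 monocyte markers 4 were lower, among them Plac8 (68.7 against 184 CPM), Ms4a4c and Chil3, and Fn1 was the 1 higher. Ms4a4c lost its call in both subtractions, and 1 cell held 83.3% of the day 2 UMIs of Chil3. S100a4, a calcium-binding protein of motile cells, had 583 against 2612 CPM and the galectin Lgals1 248 against 1048 CPM. Per 10000 UMIs the median Cd209a cell had 5.33 S100a4 UMIs at day 30 and 26.5 at day 2, and the upper quartile at day 30, 8.52, lay below the lower quartile at day 2, 18.4. All kept cells averaged 143 CPM of S100a4 at day 30 and 789 CPM at day 2. For Lgals1 these means were 474 and 935 CPM. The means of Fcgr1, Clec4n, Gpr183 and Cd69 in all kept cells were lower at day 30 too.

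Of 15 measured chemokine ligands 4 were lower at day 30 (Cxcl2, Ccl3, Ccl4 and Pf4) and 3 higher (Ccl5, Ccl6 and Cxcl1), with a median log2 ratio of 0.50. After subtraction 2 of 11 were lower and 4 higher with the nephron scale, and 3 lower and 4 higher with the fibroblast and endothelial scale. Cxcl1, which attracts neutrophils as Cxcl2 does, had 126 UMIs at day 30 and 1 at day 2, and fell below the measuring limit after either subtraction. Cxcl2, an attractant of neutrophils, had 87.01 CPM at day 30 against 550.5 CPM at day 2 (0.158-fold; 0.139 to 0.1795), while all kept cells averaged 247 CPM at day 30 and 2422 CPM at day 2. Ccl3 had 76.6 against 188 CPM and Ccl4 229 against 525 CPM, of which Ccl4 was not called after either subtraction, and Il1b (349 against 484 CPM) was not called. All 6 measured neutrophil markers outside the rule were lower, for instance Csf3r with 4.102 against 84.8 CPM, which lost its call after subtraction, and none of the list was left above the measuring limit by either subtraction. Their part in Cxcl2 beyond the subtraction was not tested. Sprr1a was named by the rule with 25.7 against 153 CPM, yet 1 cell held 96.4% of its day 2 UMIs.

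**Figure D5:**
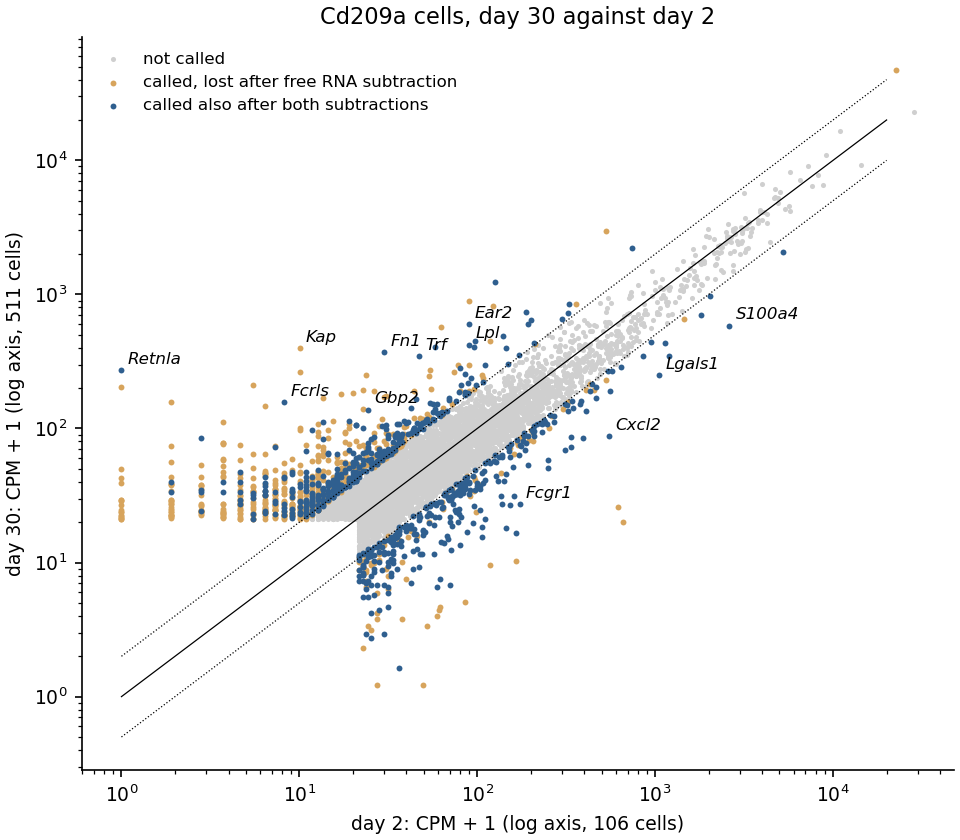
CPM + 1 of every measured gene in Cd209a cells at day 30 (vertical, 511 cells) and day 2 (horizontal, 106 cells), on log axes; the solid line marks equal levels, dotted lines a 2-fold difference. Blue genes were called also after both subtractions of free RNA (343 higher, 303 lower), among them Fn1 and Fcrls above the line and S100a4 and Cxcl2 below it; orange genes, such as Kap, lost their calls.

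Cd209a cells were last set beside C1q-low cells of the same library. At day 30, 118 of 6333 genes were higher in Cd209a cells (1.86%) and 174 lower (2.75%), and at day 2, 185 of 5767 were higher (3.21%) and 192 lower (3.33%). Of the shared dendritic list 6 of 12 genes were higher at day 30 and 4 of 10 at day 2, and none was lower at either time. Kmo, an enzyme of tryptophan breakdown, had 99.1 against 16.6 CPM at day 30 and 116 against 25.7 CPM at day 2, and Zbtb46 28.7 against 12.1 and 36.1 against 9.23 CPM. The class II accessory chains H2-DMb2, H2-Oa and H2-Ob were higher at both times, H2-Oa with 80.96 against 11.5 CPM at day 30 and 53.2 against 12.1 CPM at day 2. Mgl2 had 1759 against 528 CPM at day 30 and 1790.4 against 462 CPM at day 2, and Ccl17 503 against 241 and 631 against 64.1 CPM.

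Lower than in C1q-low cells were lipid and lysosome genes, 10 of 21 at day 30 and 7 of 19 at day 2. Lyz2 had 2957 against 10762 CPM at day 30 and 529 against 6159.6 CPM at day 2. Lpl had 421 against 1994 and 89.3 against 494 CPM, and Trem2, a lipid receptor of macrophages, 24.4 against 96.5 and 8.12 against 115 CPM. Fn1 had 369 against 1915 CPM at day 30 and 28.9 against 177 CPM at day 2, so it was lower in Cd209a cells at each time although it was higher at day 30 than at day 2 within them. Of macrophage markers 6 of 9 were lower at day 2, such as Adgre1, the macrophage antigen F4/80 (13.5 against 96.2 CPM), and 1 of 11 at day 30, when Adgre1 had 15.98 against 25.2 CPM and was not called.

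Clu, the gene behind the sort (chr14:65968483-65981547, plus strand, mm10), was lower in dendritic cells than in other kept cells at days 2 and 30 and near them at day 7. Its levels on days 2, 7 and 30 were 228 (202 to 258), 1335 (1200.1 to 1481) and 209 CPM (198 to 221) in members, against 2514, 1369 and 707 CPM in all other kept cells. After thinning to 2000 UMIs, 21.6% (14.4 to 30.4), 46.2% (19.2 to 74.9) and 22.9% (19.9 to 26.2) of the members of days 2, 7 and 30 had a Clu UMI, against 85.8%, 63.4% and 56.3% of nephron cells. Without thinning the shares were 64%, 100% and 56.3% in members and 98.2%, 98.7% and 88.2% in nephron cells. In C1q-high cells, the share after thinning to 2000 UMIs was 24.1%, 30.4% and 19.2% on days 2, 7 and 30. Subtraction of free RNA by the nephron markers left 0 CPM at days 2 and 30 and 1176 CPM at day 7, where 13 cells were counted. In these 13 cells the nephron markers summed to 55.0% of their level in all kept cells, and in the 6 Cd209a cells among them to 112.5%; the part of this RNA in the day 7 value beyond the subtraction was not tested. By subgroup at day 30, Clu stood at 126 CPM in Xcr1/Clec9a, 186 in Cd209a and 507 in Ccr7 cells.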

How the data were processed

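Single cells of 4 droplet 3′ libraries (untreated, and days 2, 7 and 30 after ischemia), 1 per group, were analysed from raw UMI counts per gene and cell as the authors deposited them. The submitters' processing notes name Cell Ranger 7.0.1 and mm10, while the deposited matrices name software 3.0.1 in their headers; the filter that set the listed barcodes is not stated. The matrices hold 27998 features. Kept cells had at least 500 UMIs, 300 genes and at most 50% mitochondrial UMIs (24410 of 27230 barcodes).

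Members, lists and tests were chosen with earlier results of these data known; 464 of 474 genes in 28 lists matched, and lists share genes, such as Csf1r and Ccr2. UMIs were summed over the cells of each set and divided by their total (CPM). Intervals are exact Poisson for levels, conditional binomial for ratios and Clopper-Pearson for shares, at 95%. With 1 library per group no test across samples was possible. Sets of fewer than 20 cells were not compared. Free RNA was estimated by scaling the library's mean profile. Scrublet, run in scanpy, served as an alternative. Named genes were the 10 with the highest ratio of at least 100 CPM per subgroup, the 10 highest and 10 lowest over time, up to 4 called genes of each list and the identity genes; others are said to be chosen later. Motifs were chosen after values were seen. Python 3.11.15, numpy 2.4.6, scipy 1.17.1, pandas 2.3.3 and scanpy 1.11.5 were used. The ratio procedure was checked on simulated Poisson counts of summed sets. These follow the model of the intervals and hold no spread between cells, so the check says nothing about that spread.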

Additional observations from a re-analysis of the deposited data

Results flagged for a closer look

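In the untreated library, which no comparison above uses, 11 of 6546 kept cells passed the dendritic rule (0.168%; 0.0839 to 0.300). They were 1 Xcr1/Clec9a, 5 Cd209a and 5 Ccr7 cells. They were singled out as a signal in a library outside the comparisons.

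Ms4a7, a membrane gene of macrophages, went opposite ways in 2 sets of cells from the same libraries. In Cd209a cells it stood at 25.04 CPM at day 30 against 5.41 CPM at day 2, a 4.63-fold ratio (2.06 to 12.9). In C1q-low cells it stood at 28.7 CPM at day 30 against 203 CPM at day 2, a 0.142-fold ratio (0.112 to 0.177). The difference between the 2 sets was not tested.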

How the results depend on the processing

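No paired analysis was possible because each group is 1 library. Comparisons with day 7 were not run, since its subgroups held 5, 6 and 2 cells. Members as a percentage of kept cells were 0.957, 0.155 and 6.69 at days 2, 7 and 30 after thinning to 3500 UMIs, 0.504 at day 2 and 4.58 at day 30 among cells of at least 18362 UMIs, and 9.23 at day 30 with a minimum of 4 marker UMIs. At day 2 the Ccr7 share of members was 0 after thinning, and among the deep cells the Xcr1/Clec9a and Ccr7 shares were 0 and the Cd209a share 100%. For Cd209a cells, day 30 against day 2, 1909 genes were higher with no CPM minimum, which tests more genes; 628 were lower after subtraction by nephron markers and 1401 by fibroblast and endothelial markers, and the cause was not tested. Of the 844 higher and 388 lower genes, 343 and 303 were called after both subtractions too. Clu in members was 0, 1176 and 0 CPM at days 2, 7 and 30 after subtraction, and 168 CPM at day 2 and 155 CPM at day 30 without Scrublet calls. Over 452 values of named genes and 8 alternatives, 1339 of 1367 recomputed values kept direction and call. Values below the measuring limit, or with 0 on a side, are not among them: the 2 subtractions left 57 and 49 of 94 values of the comparison over time. Of the recomputed values 26 lost the call and 2 turned: Epcam (log2 -1.19 after subtraction by nephron markers) and Ly6d (log2 2.05 without its highest cell, which held 97.5% of its day 2 UMIs).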
